A study of Mus musculus with 5 samples.

Results

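Aminoacyl-tRNA synthetases attach each amino acid to its transfer RNA, the step that precedes every round of protein synthesis. Most amino acids are served by a pair of nuclear genes, 1 for the cytosolic enzyme and 1, usually written with a final 2, for the enzyme imported into mitochondria. Several cytosolic enzymes are bound together with scaffold proteins in the multisynthetase complex. The family was examined here as 39 genes, chosen by name from the 23361 genes with a deposited value. It holds 10 genes listed here under the multisynthetase complex (among them the scaffolds *Aimp1* and *Aimp2*), 13 other cytosolic synthetases and 16 mitochondrial synthetases. *Gars* and *Kars*, counted as cytosolic, encode both the cytosolic and the mitochondrial enzyme. The choice started from *Lars2*, the mitochondrial leucyl-tRNA synthetase, whose high level and lower value in knockout mice had been seen in these data. Its level and genotype difference are therefore described without a test. The question asked of the other 38 genes was whether any of them shared either property.

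The libraries were made with a total RNA kit from hippocampal tissue of mice aged 3 months. The 2 control libraries are titled WT. The study names *Hdac1* f/f mice, which carry floxed *Hdac1* alleles, as its age-matched controls in tissue staining. For the RNA-seq it says only controls, and their Cre status is not stated there. The 3 *Hdac1* cKO libraries came from *Hdac1* f/f mice with *Nestin-Cre*, a transgene active in neural progenitors, so that neurons and astrocytes lose the histone deacetylase HDAC1 and microglia keep it. The study counts the libraries as mice. Levels are given as FPKM, the number of sequenced fragments scaled to transcript length and to the mapped fragments of the library.

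*Hdac1*, the deleted gene, measured 8.95 and 13.1 FPKM in control tissue against 1.95, 3.12 and 3.37 FPKM in cKO tissue. Neuronal, astrocytic, oligodendrocytic, microglial and hippocampal neuron markers were all above 1 FPKM on average. In 6 of 8 astrocyte markers the genotypes did not overlap, with the cKO libraries higher, against 20.4% of all tested genes not overlapping in either direction, and the median log2 fold change of the 8 was 0.20. The log2 fold change was below 0 in 7 of 8 neuronal markers, with a median of -0.15. Depth, estimated from the step between low FPKM values, was 5120000 to 6750000 fragments per library. The low values fell on shared steps in 2 sets of libraries that crossed the genotypes. Control 1 and cKO 1 formed set A, and control 2, cKO 2 and cKO 3 formed set B. Of genes with a mean under 0.3 FPKM, 24.6% to 28.4% shared nearly the same ratio (a window of 0.05 in log2) in the 4 pairs of libraries within a set, against 3.71% to 4.64% in the 6 pairs across sets. The labels name no batch, and genotype differences are given within each set where they matter. Transthyretin (*Ttr*), a marker of the choroid plexus that borders the hippocampus, ranged from 1.33 to 157 FPKM in control tissue and from 20.7 to 589 FPKM in cKO tissue, so that the genotypes overlapped.

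*Lars2* stood far above its family in every library. Controls 1 and 2 held 1575 and 2639 FPKM, and cKO 1, 2 and 3 held 338, 236 and 1130 FPKM. The control mean was 2107 ± 752 FPKM (SD, n = 2) and the cKO mean 568 ± 489 FPKM (SD, n = 3). All 3 cKO libraries lay below both controls, but cKO 3 was closer to control 1 than to either other cKO library. Relative to the control mean, the cKO libraries held 16.1%, 11.2% and 53.6% of the *Lars2* level. The log2 fold change on the log2(FPKM + 1) scale was -2.18 (SE 0.57). It was -2.22 within set A (cKO 1 against control 1). Within set B it was -2.35, from the mean of cKO 2 and cKO 3, which differed widely, against control 2. Fewer cells that make a transcript and less transcript per cell cannot be told apart in tissue RNA.

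The mean *Lars2* level of 1184 FPKM was 20.5 times that of the next family member, *Aimp1*, at 57.6 FPKM. In the controls *Lars2* ranked 27th and 14th among all 23361 genes, and in the cKO libraries 228th, 303rd and 48th. The ratio of *Lars2* to *Lars*, the cytosolic leucyl-tRNA synthetase, reached 118 and 140 in control tissue, and 22.4, 14.7 and 59.2 in cKO 1, 2 and 3. Against the median of the other 15 mitochondrial synthetases, *Lars2* was 224 and 380 times higher in control tissue, and 46.2, 29.985 and 156 times higher in cKO 1, 2 and 3. Thus even cKO 2, the library with the lowest *Lars2* level, kept it 3.64 times above the next gene of the family in that library, *Aimp1*. *Lars2* alone exceeded the sum of the other 38 genes 2.41 and 3.45 times in the controls, and 1.49 times in cKO 3. In cKO 1 and cKO 2 it came to 0.513 and 0.313 of that sum.

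**Figure D1:**
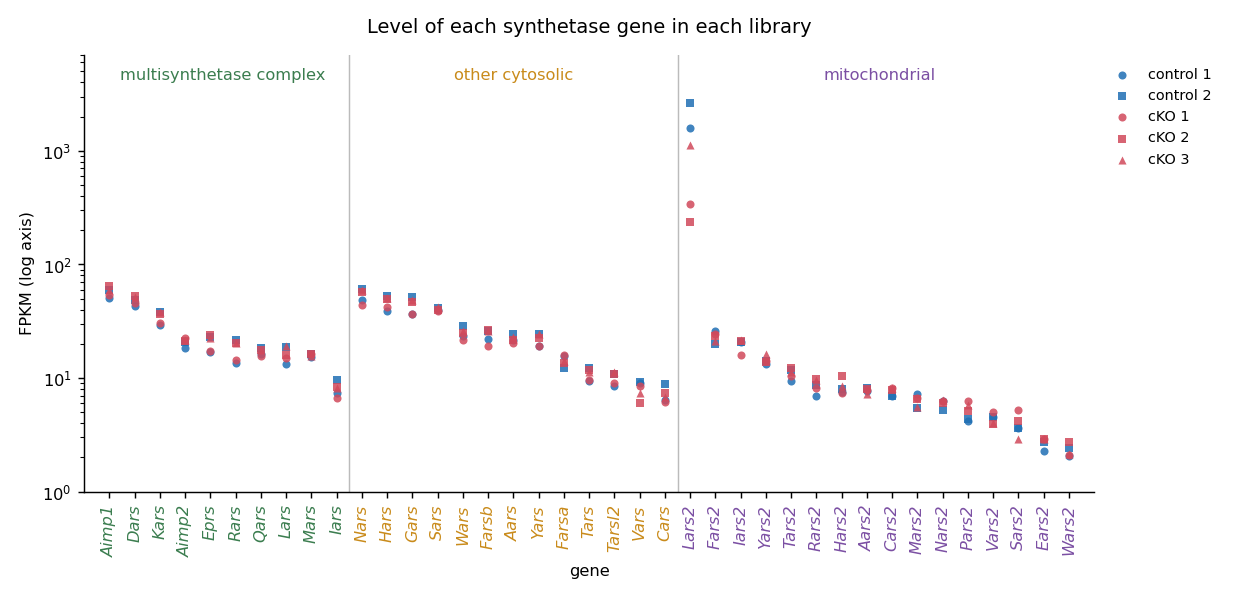
FPKM (log axis) of the 39 synthetase genes in each of the 5 libraries, ordered by mean within the multisynthetase complex, the other cytosolic synthetases and the mitochondrial synthetases. Blue points are controls and red points *Hdac1* cKO, and *Lars2*, at 236 to 2639 FPKM, lies above every other gene in each library.

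Over the 5 libraries the coefficient of variation of *Lars2*, which includes the genotype difference it was chosen for, was 83.3%, against 2.82% to 22.2% for the other 38 genes, with a median of 11.7%. The median over all 12740 tested genes was 11.4%. The *Lars2* values rest on an estimated 4684 to 67499 fragments per library, and those of the other genes on 30.5 to 1056.

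*Rn45s*, the 45S ribosomal RNA precursor, was the RNA whose values were set beside *Lars2*. Controls 1 and 2 held 4634 and 3220 FPKM of it, and cKO 1, 2 and 3 held 2693, 573 and 1440 FPKM. As for *Lars2*, all 3 cKO libraries lay below both controls and cKO 2 was lowest. The order of the others differed, with *Lars2* highest in control 2 and *Rn45s* highest in control 1. The *Rn45s* log2 fold change was -1.56 (SE 0.53), with -0.78 within set A and -1.82 within set B. In limma its unadjusted p was 0.018 and its adjusted p 0.955. It thus passed a fold change of 1.5 with an unadjusted p under 0.05, as did 0.659% of all tested genes. *Rn45s* was chosen with its decrease already known. Without cKO 2, the differences were -1.72 for *Lars2* and -0.97 for *Rn45s*. The 8 choroid plexus markers summed to 168 and 6.66 FPKM in controls 1 and 2, and to 75.6, 606 and 25.7 FPKM in cKO 1, 2 and 3, most of it *Ttr* except in control 2. *Otx2* was listed at 0 in control 2, and *Folr1* and *Kcnj13* in cKO 3. This sum was highest in cKO 2, where *Lars2* was lowest, and lowest in control 2, where *Lars2* was highest. The order was not inverse throughout, since control 1 had a larger sum than cKO 1 and cKO 3 and also more *Lars2*. Between cKO 1 and cKO 3, the larger sum went with less *Lars2*. The astrocyte markers, none of them at 0, summed to 2674 and 2698 FPKM in controls and to 2913 to 3077 FPKM in cKO tissue. The neuronal markers, again none at 0, summed to 2342 and 2507 FPKM and to 2183 to 2463 FPKM. The part of ribosomal RNA, choroid plexus tissue and cell makeup in the *Lars2* difference was not tested.

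**Figure D2:**
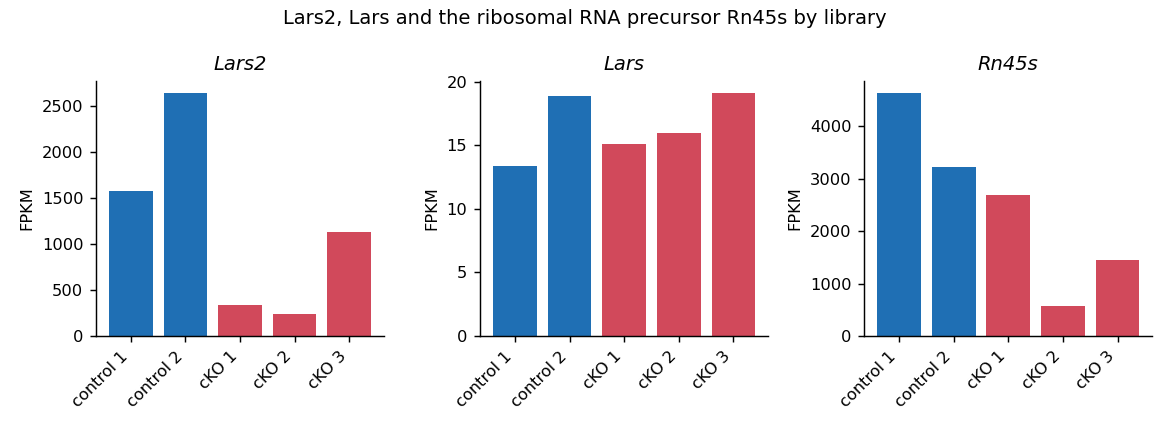
FPKM (linear axes from 0) of *Lars2*, *Lars* and *Rn45s* in each library, 1 bar per library, controls in blue and *Hdac1* cKO in red. *Lars2* and *Rn45s* are lower in all 3 cKO libraries than in both controls, while *Lars* spans 13.3 to 18.9 FPKM in control tissue and 15.1 to 19.1 FPKM in cKO tissue.

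*Lars2* lies on the plus strand at chr9:123276058-123371782 (NCBIM37, the build also called mm9). Its 3881-nt transcript ends in a 3′ UTR of 986 nt, which starts at nt 2896. Within this UTR, 398 nt (nt 3009 to 3406, 40.4% of the UTR) matched 21 other places on 12 chromosomes at 82.2% to 98.8% identity. Up to 12 of these places covered the same nucleotide. Of the 21 matches, 3 lay in an annotated exon, 9 in introns only and 9 between genes. The exons belonged to *Gm15564* and *AA474408*, which have no row in the deposited files.

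**Figure D3:**
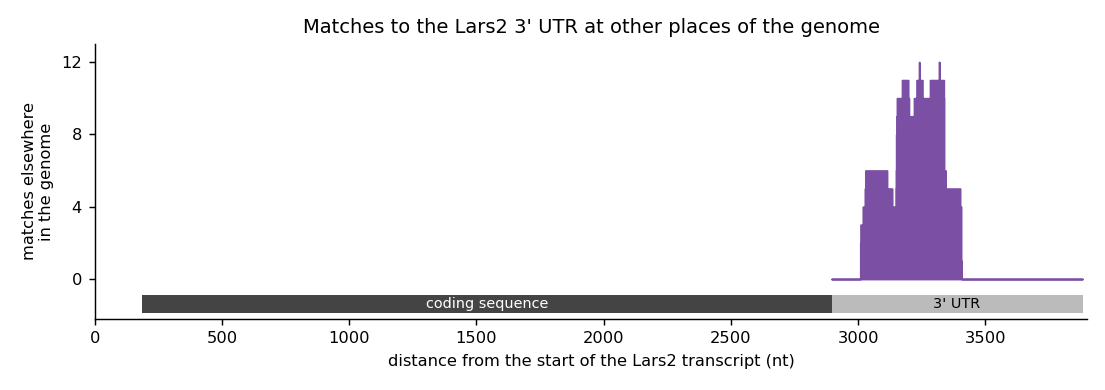
Number of matches elsewhere in the genome (y axis) along the *Lars2* 3′ UTR, by distance in nt from the transcript start (x axis), with the coding sequence and UTR drawn to scale beneath. Matches fill nt 3009 to 3406, reach at most 12 over the same nucleotide, and are at 0 in the rest of the UTR, and the coding sequence was not searched for this plot.

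A 30-nt window of the repeated stretch (transcript nt 3161 to 3190) is identical in 6 of the 9 copies outside annotated exons that span it. The copy between genes on chromosome 6 is printed because it carries the window outside any transcript. It is set beside a stretch of *mt-Rnr2*, the large-subunit ribosomal RNA of mitochondria, since large-subunit ribosomal RNAs share conserved core sequences. Capitals mark the longest run that the pair have in common, 9 nt, and 18 of the 30 positions are alike. The window was picked as identical in the most copies, and the place in *mt-Rnr2* for its longest shared run. The likeness was thus selected, and how often such a run occurs elsewhere was not tested.
copy at chr6:49186455-49186484, minus strand: tcagaaaagttaccacAGGGATAACtggct
*mt-Rnr2* at chrM:2356-2385, plus strand: cggaccaagttaccctAGGGATAACagcgc

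The likeness is a description of the reference sequence. The stretch was not compared with the nuclear 28S ribosomal RNA, and per-gene FPKM do not show where in *Lars2* the fragments lay. Whether fragments from other places with a like sequence were counted as *Lars2* was not tested. The other transcripts were searched by a stricter criterion, a match of at least 200 nt at 95% identity or more. By it *Lars2* had 1 match elsewhere (244 nt) and *Iars* had 3, the only other member with any. The *Iars* matches, at 95.7% to 96.4% identity, lay together on chromosome 1. *Iars*, the cytosolic isoleucyl-tRNA synthetase, had 7.41 and 9.58 FPKM in control tissue against 6.65, 8.30 and 8.13 FPKM in cKO tissue, so that its groups overlapped.

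No other synthetase had a genotype difference near the size of that of *Lars2*. All 38 passed the filter of a mean of 1 FPKM and were tested by limma with the other genes. The study's thresholds are a fold change of at least 1.5 and a p under 0.05, and whether its p was adjusted is not stated. Here they were applied to the unadjusted limma p on the log2(FPKM + 1) scale. By them 0 of the 38 differed, against 0.659% of the 12740 tested genes. After Benjamini-Hochberg adjustment over all tested genes 0 of the 38 passed, against 0.00785%, which is 1 gene. The deleted gene *Hdac1* did not pass either (limma adjusted p = 0.219), so failing adjustment does not set the 38 genes apart. At an unadjusted p under 0.05 there was 1 of 38, *Pars2*, against 4.36%. The 38 log2 fold changes ran from -0.30 for *Vars* to 0.34 for *Pars2*, with a median of 0.043, beside 0.015 over all tested genes. They were above 0 in 26 genes and below in 12, against 53.7% above 0 over all tested genes. The number above 0 was 17 after rescaling each library to a common total and 13 without control 1. On the log2(FPKM + 1) scale, the 95% confidence interval of the difference lay wholly inside a 1.5-fold change in either direction for 36 of the 38 genes, against 82.3% of all tested genes. The exceptions were *Pars2* and *Vars*. Turned back to a ratio of FPKM, the intervals of 33 genes lay inside, against 67.5%, and those of *Ears2*, *Rars* and *Sars2* also reached past it.

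**Figure D4:**
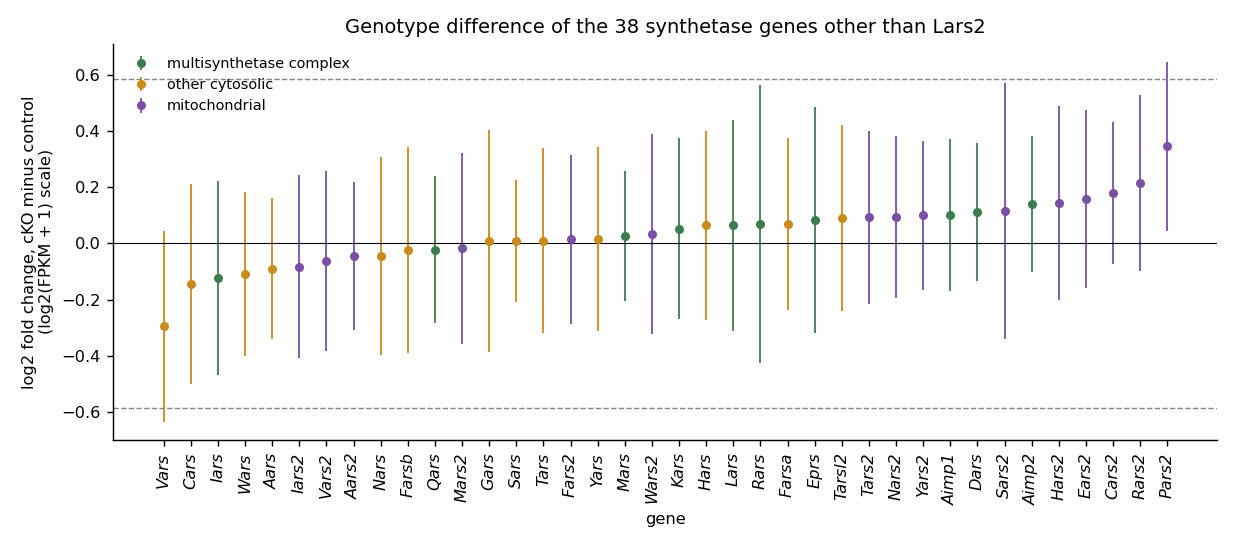
Log2 fold change (cKO minus control, log2(FPKM + 1) scale) of the 38 synthetase genes other than *Lars2*, with 95% confidence intervals from limma, coloured by class. Dashed lines mark a 1.5-fold change on this scale, and only the intervals of *Vars* and *Pars2* cross them.

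In 5 of the 38 genes the control and cKO libraries did not overlap, against 20.4% of all tested genes. These were *Pars2*, *Cars2*, *Aimp2* and *Ears2*, higher in the cKO libraries, and *Vars*, lower. *Aimp2*, *Ears2* and *Sars2* were named after their values were seen. *Pars2*, the mitochondrial prolyl-tRNA synthetase (chr4:106323674-106327887, plus strand), had 4.16 and 4.37 FPKM in control tissue against 6.25, 5.11 and 5.76 FPKM in cKO tissue. Its log2 fold change was 0.34 (SE 0.13, limma adjusted p = 0.955). It was 0.49 within set A and 0.26 within set B. This difference did not pass adjustment. Its unadjusted limma p was 0.0848 without cKO 1, 0.0697 without cKO 3 and 0.0200 without cKO 2. After rescaling each library to a common total it was 0.0670. Leaving out control 1 or control 2 leaves a single control library, and the log2 fold change was then 0.32 and 0.37.

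*Vars*, the cytosolic valyl-tRNA synthetase, had 9.01 and 9.15 FPKM in control tissue against 8.49, 6.01 and 7.33 FPKM in cKO tissue. The log2 fold change was -0.30 (SE 0.15, limma adjusted p = 0.955), with -0.077 within set A and -0.41 within set B. Its unadjusted limma p, 0.079, was 0.038 after rescaling to a common total, 0.022 without cKO 1 and 0.21 without cKO 2. Its largest gap from the controls was in cKO 2. Of its 5611 exonic nt, 304 overlap a gene on the opposite strand, as do 487 of 1654 for *Aimp2* and 89 of 5152 for *Ears2*. Whether counting used strand is not given in the sources used here, so reads of these overlaps may not be separable.

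The next genes at either end differed less. *Rars2*, for mitochondrial arginine, measured 7.02 and 8.69 FPKM in control against 8.25, 9.81 and 9.67 FPKM in cKO tissue, a log2 fold change of 0.21 (SE 0.14). *Cars2*, for mitochondrial cysteine, measured 7.02 and 6.94 FPKM in control against 8.13, 7.86 and 8.10 FPKM in cKO tissue, a log2 fold change of 0.18 (SE 0.11). *Cars*, its cytosolic counterpart, measured 6.46 and 8.93 FPKM in control against 6.12, 7.45 and 6.85 FPKM in cKO tissue, a log2 fold change of -0.14 (SE 0.16). The limma adjusted p of these 3 genes was 0.955 to 0.971. Of the 3, only *Cars2* had groups that did not overlap.

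*Lars* is the closest counterpart of *Lars2*, since it loads leucine on cytosolic tRNA. Controls 1 and 2 held 13.3 and 18.9 FPKM, and cKO 1, 2 and 3 held 15.1, 16.0 and 19.1 FPKM, so that the genotypes overlapped. Its log2 fold change was 0.064 (SE 0.16, 95% confidence interval -0.31 to 0.44, limma adjusted p = 0.989).

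The most abundant members after *Lars2* were cytosolic. *Aimp1*, a scaffold of the multisynthetase complex, measured 51.1 and 59.2 FPKM in control and 53.6, 64.8 and 59.4 FPKM in cKO tissue. *Nars*, for asparagine, measured 48.9 and 60.9 FPKM in control and 44.0, 56.9 and 59.1 FPKM in cKO tissue. *Dars*, for aspartate and part of the complex, measured 43.4 and 48.6 FPKM in control and 45.6, 52.3 and 51.4 FPKM in cKO tissue. *Hars*, for histidine, measured 38.9 and 52.7 FPKM in control and 42.3, 49.3 and 51.1 FPKM in cKO tissue. In all 4 genes the genotypes overlapped, and the ranges of neighbours in this order overlapped too. *Hars* and *Hars2* share 195 nt of exon on opposite strands, so their reads may not be separable.

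By class, the 23 cytosolic genes had a median level of 18.3 to 23.0 FPKM per library, and the 15 mitochondrial synthetases other than *Lars2* one of 6.94 to 7.86 FPKM. The lowest mean, 2.28 FPKM, was that of *Wars2*, for mitochondrial tryptophan. Median log2 fold changes were 0.016 in the cytosolic class, with 15 genes above 0 and 8 below, and 0.095 in the mitochondrial class other than *Lars2*, with 11 above and 4 below. The cytosolic median was -0.15 without control 1 and 0.18 without control 2, and the mitochondrial median 0.077 and 0.12. Without *Lars2*, the family summed to 653 and 765 FPKM in controls 1 and 2, and to 660, 753 and 759 FPKM in cKO 1, 2 and 3. Control 1 and cKO 1, the libraries of set A, had the lowest sums.

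The cytosolic synthetases were mostly higher in one set of libraries. In a limma fit with genotype and set as terms, 21 of the 23 cytosolic genes were higher in set B, with a median log2 difference of 0.28. The median over all tested genes was 0.047, and 59.4% of them were higher in set B. An unadjusted p under 0.05 was reached by 17 of the 23, against 22.9% of all tested genes, and by 5 without control 1 or control 2 and 7 without cKO 1. After adjustment 4 of the 23 passed, all higher in set B, against 3.09%. In the 15 mitochondrial synthetases other than *Lars2*, 8 were higher in set B, the median difference was 0.0051, and 2 reached an unadjusted p under 0.05 and 0 passed adjustment. The 10 genes listed under the multisynthetase complex were all higher in set B. *Eef1e1*, a further scaffold of the complex that was listed here with the elongation factors, had a set difference of -0.0078 (SE 0.11, limma adjusted p = 0.976). The set difference was larger than the genotype difference of the same fit in 30 of the 38 genes, against 61.3% of all tested genes.

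Other lists differed in how they lay between the sets. All 8 microglial markers were higher in set B, with a median difference of 0.21, and 1 of them, *Aif1*, passed adjustment (0.51, SE 0.11, limma adjusted p = 0.0497), against 3.09% of all tested genes. The 8 markers summed to 188 and 186 FPKM in set A and to 229, 201 and 230 FPKM in set B, and none was at 0. Of the 14 mitochondrial translation factors, 13 were higher in set B, with a median of 0.11 and 0 past adjustment. The cytosolic elongation factors (4 of 10 higher in set B, median -0.0051), the ATF4 amino acid response (9 of 20, median -0.017), the oligodendrocyte markers (3 of 8, median -0.029) and the hippocampal neuron markers (3 of 8, median -0.15) did not lie mostly higher in set B, nor did the 5 tested choroid plexus markers (2 of 5, median -0.16). Astrocyte markers were higher in 7 of 8 and neuronal markers in 5 of 8, with medians of 0.024 and 0.017. Of the hippocampal neuron markers 1 passed adjustment, *Neurod6*, higher in set B (0.34, limma adjusted p = 0.0427). The part of cell makeup in the synthetase difference was not tested.

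**Figure D5:**
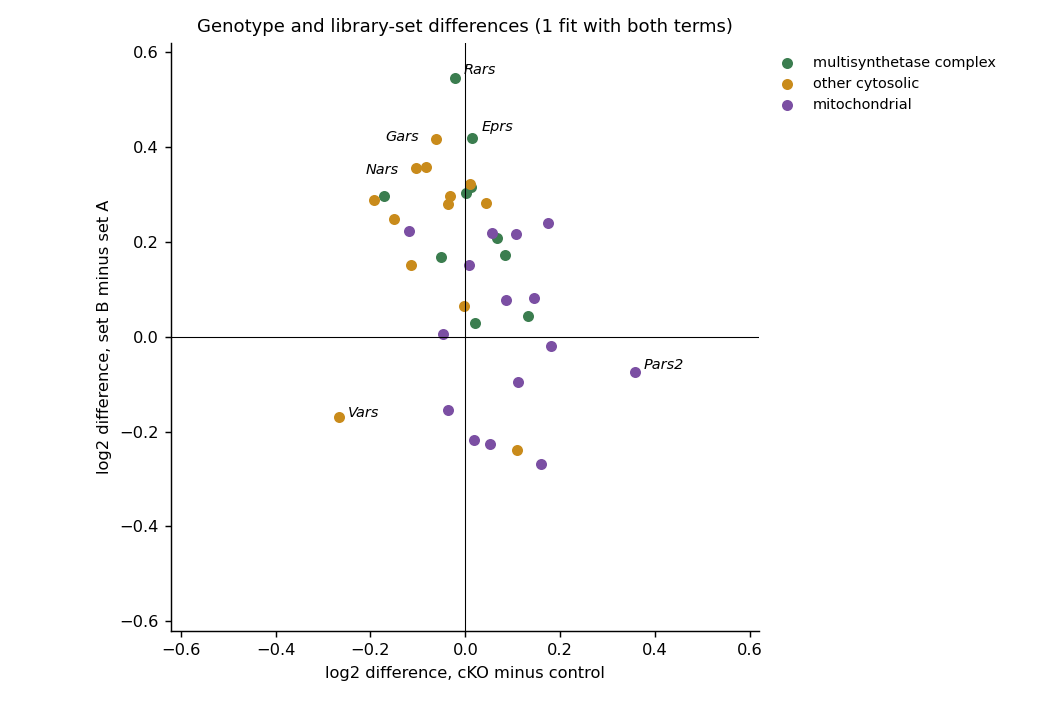
Genotype difference (x axis, cKO minus control) against library-set difference (y axis, set B minus set A) for the 38 synthetase genes other than *Lars2*, both in log2 units from 1 limma fit with both terms. Of the 23 cytosolic genes (green and amber) 21 lie above 0 on the y axis, against 8 of the 15 mitochondrial genes (purple).

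The 4 genes that passed were *Rars*, *Gars*, *Nars* and *Eprs*, of which *Rars*, *Gars* and *Eprs* were named after their values were seen. *Rars*, for arginine, was at 13.5 and 14.4 FPKM in set A and at 21.8, 20.3 and 20.2 FPKM in set B, a log2 difference of 0.55 (SE 0.085, limma adjusted p = 0.0275). *Gars*, for glycine, was at 36.4 and 36.6 FPKM in set A and at 51.4, 46.4 and 48.5 FPKM in set B, a difference of 0.42 (SE 0.071, limma adjusted p = 0.0329). *Eprs*, which loads both glutamate and proline, was at 16.9 and 17.2 FPKM in set A and at 23.0, 24.1 and 22.4 FPKM in set B, a difference of 0.42 (SE 0.079, limma adjusted p = 0.0421). For *Nars* the difference was 0.36 (SE 0.067, limma adjusted p = 0.0415). In each of the 4 genes, which the test had picked, the sets did not overlap, as in 40.1% of all tested genes. The calls rest on few libraries. Without control 1 or cKO 1, set A is a single library, and without control 2 a single control is left. Leaving out control 1, control 2 or cKO 1 left 0 of the 23 past adjustment, where the calls over all tested genes went from 394 to 116, 126 and 87. Without cKO 2 there were 10 of the 23 and 1454 over all genes, and without cKO 3 there was 1 and 302 over all genes. Over these 5 fits, 19 to 22 of the 23 genes were higher in set B. *Lars2* had a set difference of 0.67 with a wide interval (-0.60 to 1.93). What distinguishes the sets was not tested.

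Genes that work beside the synthetases were compared between genotypes in the same way. Of 14 mitochondrial translation factors and 10 cytosolic elongation factors, 0 reached an unadjusted p under 0.05, against 4.36% of all tested genes, and their median log2 fold changes were -0.0081 and 0.024. Of 23 genes of the ATF4 amino acid response, a programme that induces amino acid transporters and many cytosolic synthetases when amino acids run short, 20 passed the filter. Of these, 2 reached an unadjusted p under 0.05 and 0 passed adjustment, and the median was 0.028. The genotypes did not overlap in 7 of the 20, against 20.4% of all tested genes, and 14 of the 20 intervals lay inside a 1.5-fold change on the log2(FPKM + 1) scale, against 82.3%. *Slc7a11*, the cystine transporter, had 12.3 and 12.7 FPKM in control tissue against 18.3, 17.0 and 17.6 FPKM in cKO tissue, a log2 fold change of 0.46 (limma adjusted p = 0.955). *Shmt2*, the mitochondrial serine hydroxymethyltransferase, had 6.23 and 6.20 FPKM in control tissue against 4.57, 3.99 and 5.27 FPKM in cKO tissue, a log2 fold change of -0.37 (limma adjusted p = 0.955). These 2 genes of the programme lay on opposite sides of 0.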

How the data were processed

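RNA-seq of 5 hippocampal libraries was used, 2 control and 3 *Hdac1* cKO, grouped by sample title. Each deposited file lists FPKM, made by the authors by collapsing reads, aligning them with TopHat2 to mm9 and quantifying with Cufflinks 2.0.0. Collapsing identical reads can lower the values of very abundant transcripts. Tests were run in limma 3.58.1 (R 4.3.3) on log2(FPKM + 1) for the 12740 genes whose mean reached 1 FPKM, with genotype as the only term and a variance trend. This understates changes of low genes. Differences between library sets came from a fit with both terms. The pipeline was tested on simulated data. The 39 genes and the comparison lists were chosen with earlier results of these data known. Named genes were *Lars2*, *Lars*, the 5 with the highest mean, the 3 highest and 3 lowest log2 fold changes, any with an unadjusted p under 0.05, *Hdac1* and *Rn45s*. Fragment numbers were estimated from the steps of low values in long transcripts, and are approximate. Transcripts were searched against the NCBIM37 genome with BLAST 2.17.0 (largest e-value 1e-10 for the *Lars2* UTR and 1e-40 for the transcripts), with GENCODE vM1 gene models. Other pseudocounts, filters and scalings, blocks and omission of each library were tried.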

Additional observations from a re-analysis of the deposited data

How the results depend on the processing

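Under all 14 alternatives, 0 of the 38 synthetases other than *Lars2* passed the fold and p criterion or adjustment, and *Lars2* stayed between -2.85 and -1.72 in log2 fold change. With a minimum mean of 5 FPKM, 35 of the 39 genes were tested. The number of genes past the fold and p criterion over the whole table, 84, was 142 with a pseudocount of 0.1, 43 with a minimum mean of 5 FPKM and 166 after rescaling to a common total, and 92 to 231 when 1 library was left out. The cause of these shifts was not tested. The median of all 39 synthetases, 0.033, was -0.072 to 0.12 when 1 library was left out (-0.072 without control 1), and rescaling turned it to -0.015, with the median of all genes at -0.047. Labels share replicate numbers 1 and 2 across genotypes without naming a shared litter or day. Same-numbered libraries deviated together (r = 0.40 and 0.27). Both pairs also lie within a library set, so number and set cannot be told apart. The deviations of the 2 controls mirror each other, so the values of r are not separate. A fit with the replicate number as a block gave 133 genes past the criterion, with 0 of the 38 synthetases. Of the 23 cytosolic synthetases, the number past adjustment between library sets, 4, was 2 with median-ratio or quantile scaling, 9 after rescaling and 0 to 10 when 1 library was left out. The alternatives for the library sets were chosen after seeing the data. The lowest members rest on few fragments (from 30.5 for *Ears2*), which limits small differences there.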
